A study of Homo sapiens with 66 samples.

Results

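The comparison set 3 libraries of wild-type KBM7 cells treated with dBET6 against 3 libraries of the same cells treated with THAL-SNS-032, 6 of the 66 libraries of the series, chosen by their labels alone. KBM7 is a near-haploid line from a chronic myeloid leukaemia. dBET6 (100 nM, 6 h) is a degrader of the BET bromodomain proteins, and THAL-SNS-032 (250 nM, 6 h) is a degrader of the kinase CDK9 that carries the CDK inhibitor SNS-032 as its ligand. The doses differ, so each difference below is between these treatments as given, not between the compounds at a matched dose. Wild-type cells with DMSO for 6 h (3 libraries) gave the untreated level. KBM7 cells with a degradation tag on CDK9 or on the Mediator subunit MED14, given 500 nM dTAG7 or DMSO for 6 h (3 libraries each), served as cells that share no library with either compound. All cells were of 1 line, treated in triplicate wells. The p-values below therefore reflect variation among wells, some of which may be technical.

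BET proteins bind acetylated chromatin and help to start transcription and to release paused RNA polymerase II. CDK9, with a cyclin T partner, forms the kinase P-TEFb, which phosphorylates the polymerase and its pausing factors so that elongation can begin. HEXIM1 holds part of P-TEFb in an inactive complex, and both protein groups are studied in leukaemia because short-lived transcripts of transcription factors such as MYC and MYB fall when either is lost. The question here is which transcripts fell further with dBET6 and which with THAL-SNS-032, beyond the difference of the typical gene.

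The libraries were shallow after both treatments, with 586968, 800098 and 624858 endogenous counts after dBET6, 810467, 1105305 and 784033 after THAL-SNS-032, and 2502436 to 3175996 in DMSO. All 7 markers of a myeloid leukaemia line that were looked up (KIT, CD33, CD34, GATA1, GATA2, BCR and ABL1) had counts, though GATA1 summed to 7, 2 and 15 counts over the dBET6, THAL-SNS-032 and DMSO libraries. Of 13 lymphoid and stromal markers 7 were analysed, and their summed level was 124 to 150 CPM (counts scaled by library size) after dBET6, 63.2 to 72.7 CPM after THAL-SNS-032 and 50.6 to 71.7 CPM in DMSO. Relative to other transcripts that sum was thus higher after dBET6 than in either other group, without overlap, and its member MS4A1 was at 0 counts in DMSO. The sum was not taken per spike-in, a scale explained below. On that scale a list of 21 lymphoid and stromal genes (11 tested) lay below DMSO. Its median log2 fold change was -3.04 after dBET6 and -2.93 after THAL-SNS-032. The part of these markers in the results below was not tested.

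Less endogenous RNA was counted per spike-in after dBET6 than after THAL-SNS-032. Equal amounts of synthetic RNA had been added to each lysate, so the ratio of endogenous to spike-in counts follows RNA per well. In bulk wells, fewer cells and less RNA per cell cannot be told apart. The log2 ratio was 3.71, 3.86 and 4.01 in the dBET6 libraries, 4.53, 4.30 and 4.66 in the THAL-SNS-032 libraries and 6.98, 7.12 and 6.91 in DMSO. Every dBET6 library lay below every THAL-SNS-032 library. The means were 3.86 ± 0.15 and 4.50 ± 0.18 (SD, n = 3 each), a difference of -0.64, so that the dBET6 libraries held 64.3% of the RNA of the THAL-SNS-032 libraries (exact two-sided permutation test, p = 0.1, the smallest that 3 against 3 allows). Set against DMSO, the geometric mean was 11.3% after dBET6 and 17.6% after THAL-SNS-032.

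**Figure D1:**
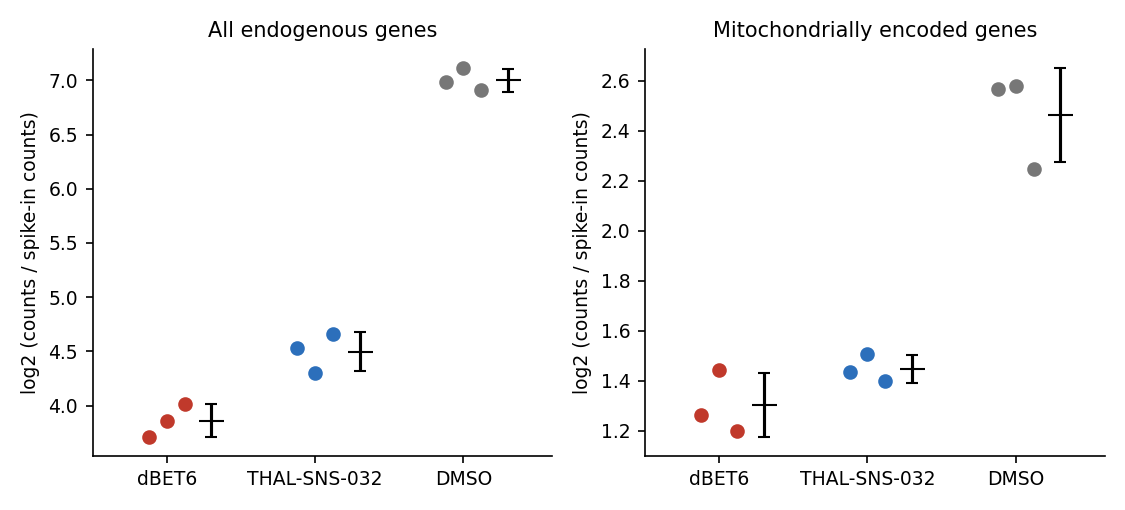
Log2 ratio of endogenous counts (left) and of counts from mitochondrially encoded genes (right) to spike-in counts, with 1 point per library and the mean ± SD (n = 3) beside the points. The left ratio averages 3.86 after dBET6 and 4.50 after THAL-SNS-032, both far below the DMSO points, while the right ratio averages 1.30 after dBET6 and 1.45 after THAL-SNS-032 and those points overlap.

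Counts were read on a pair of scales because of this shared difference. On the spike-in scale library size is the spike-in total, so a loss common to all genes is kept. On the TMM scale (trimmed mean of M-values) the typical gene is set to no change, so a call is beyond that common loss. The median gene differed by -0.82 on the spike-in scale and by -0.05 on the TMM scale, in log2 of dBET6 over THAL-SNS-032. On the spike-in scale 6684 of 12515 genes tested were lower after dBET6 (53.4%) and 49 were higher (0.392%), at an adjusted p under 0.05 (edgeR quasi-likelihood test, Benjamini-Hochberg). On the TMM scale 333 of 12973 genes were lower (2.57%) and 267 higher (2.06%), while median-of-ratios scaling gave 215 lower and 383 higher. All 333 were lower on both scales (2.67% of 12459 genes tested on both), and 45 of the 267 were higher on both (0.361%). Since the spike-in scale sets the median gene lower, a TMM-lower gene was nearly bound to be lower there too. Of the other TMM-higher genes, 135 were not called on the spike-in scale, 49 were lower there and 38 were not tested there. Most genes of the higher side were thus higher relative to other transcripts but were not called higher per spike-in. The CPM given below are TMM-scaled, so a level above DMSO in CPM need not be above it per spike-in.

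These counts lean on the spread pooled over all 66 libraries. With the 6 libraries alone, 12 genes were lower and 32 higher on the TMM scale, all of them among the 333 and the 267. Leaving out each of the 6 libraries in turn left 58 lower and 61 higher genes called every time, and without replicate A of dBET6 the counts were 121 and 101. Without replicate B of THAL-SNS-032, 214 genes were lower, and without its replicate C 176 were higher. In what follows, the number of the 6 leave-one-out fits that kept the TMM call of a named gene is given where it is below 6.

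**Figure D2:**
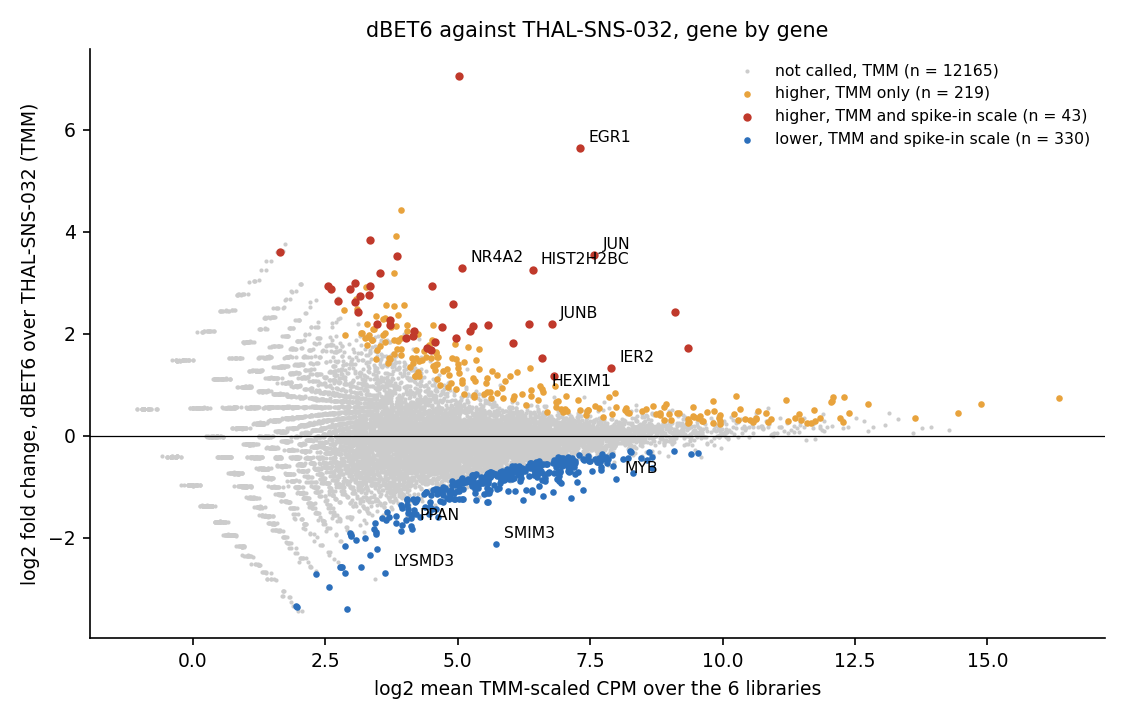
Log2 fold change of dBET6 over THAL-SNS-032 (TMM scale) against the log2 mean TMM-scaled CPM of the 6 libraries, 1 point per gene, for the 12757 genes with counts in both arms (the other 216 tested genes are not drawn). Blue points are lower and red points higher after dBET6 on both scales, orange points are higher on the TMM scale only, and EGR1 and JUN stand highest among the well-counted genes.

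Immediate early genes, which respond within minutes to growth factor or stress signals, included the well-counted genes with the largest differences on the higher side. Of 27 tested on the TMM scale, 8 were higher after dBET6 and 0 lower, and 4 of the 8 (EGR1, JUN, JUNB and IER2) were higher on both scales, while 4 of the 24 tested per spike-in were lower there. Among all genes 2.06% were higher and 2.57% lower on the TMM scale, and 53.4% were lower per spike-in. The median of the list was 0.49 on the TMM scale but -0.34 on the spike-in scale, against -0.05 and -0.82 for all genes. By the fit on the 6 libraries alone 5 of these genes were higher and 0 lower. EGR1, a zinc finger transcription factor, and JUNB, a subunit of the AP-1 factor, are shown first by their promoters, then HIST1H2AC, a histone H2A gene, and HEXIM1, with MYB as a gene of the lower side. The windows run from 250 bases before to 50 after the transcription start and come from RefSeq (GRCh38.p14), at chr5:138465229-138465528 (plus strand) for EGR1, chr19:12791236-12791535 (plus) for JUNB, chr6:26123922-26124221 (plus) for HIST1H2AC, chr17:45148225-45148524 (plus) for HEXIM1 and chr6:135181058-135181357 (plus) for MYB. Capitals mark the TATA motif TATAAA and the CArG box of serum response elements, on either strand.
EGR1: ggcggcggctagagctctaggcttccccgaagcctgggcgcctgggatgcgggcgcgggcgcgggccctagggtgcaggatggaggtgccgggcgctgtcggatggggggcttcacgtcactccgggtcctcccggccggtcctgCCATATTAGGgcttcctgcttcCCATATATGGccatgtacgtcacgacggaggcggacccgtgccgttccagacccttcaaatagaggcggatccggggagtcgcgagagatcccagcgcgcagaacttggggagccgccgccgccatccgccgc
JUNB: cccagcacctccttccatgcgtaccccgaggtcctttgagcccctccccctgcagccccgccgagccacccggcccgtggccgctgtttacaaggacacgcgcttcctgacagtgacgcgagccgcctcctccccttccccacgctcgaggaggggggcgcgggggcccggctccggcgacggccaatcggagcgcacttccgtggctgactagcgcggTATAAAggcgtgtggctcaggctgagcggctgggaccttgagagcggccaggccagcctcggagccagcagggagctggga
HIST1H2AC: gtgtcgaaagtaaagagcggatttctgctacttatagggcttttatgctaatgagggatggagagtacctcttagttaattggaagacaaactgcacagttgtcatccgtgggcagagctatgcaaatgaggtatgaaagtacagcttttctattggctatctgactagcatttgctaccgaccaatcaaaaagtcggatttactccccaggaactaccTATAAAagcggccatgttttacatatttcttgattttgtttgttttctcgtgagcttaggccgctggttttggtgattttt
HEXIM1: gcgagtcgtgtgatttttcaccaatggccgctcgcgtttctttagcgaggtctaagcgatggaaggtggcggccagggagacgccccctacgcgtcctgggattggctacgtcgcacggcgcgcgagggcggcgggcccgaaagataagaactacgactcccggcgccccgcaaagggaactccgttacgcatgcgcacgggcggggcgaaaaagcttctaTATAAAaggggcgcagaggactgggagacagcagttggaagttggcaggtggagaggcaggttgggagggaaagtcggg
MYB: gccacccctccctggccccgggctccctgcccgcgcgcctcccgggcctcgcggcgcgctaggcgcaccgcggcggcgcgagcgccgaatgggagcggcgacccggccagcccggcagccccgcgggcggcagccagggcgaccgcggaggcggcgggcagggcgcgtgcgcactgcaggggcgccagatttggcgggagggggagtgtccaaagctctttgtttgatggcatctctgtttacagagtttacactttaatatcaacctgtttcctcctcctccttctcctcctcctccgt

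The EGR1 window holds a pair of CArG boxes, the windows of JUNB, HIST1H2AC and HEXIM1 each hold TATAAA, and the MYB window holds neither motif. HEXIM1 was higher on the TMM scale only. The windows of JUN, IER2 and TXNIP, which were higher on both scales, hold neither motif as well, so the windows printed are not typical of all higher genes. Promoter windows were matched for 28 of the 45 genes higher on both scales, 172 of the 267 genes higher on the TMM scale, 272 of the 333 lower genes and 9635 of all 12973 genes tested. TATAAA stood in 21.4% of the windows of genes higher on both scales (6 of 28: H1FX, HIST1H2AC, HIST2H2BE, JUNB, PAPPA and VGF), 13.4% of those higher on the TMM scale, 2.94% of the lower genes and 5.48% of all. In the same order of gene sets, CCAAT stood in 57.1%, 45.9%, 40.1% and 37.2% of windows. The CArG box stood in 7.14% (2 of 28), 2.33%, 1.47% and 1.07%. GGGCGG stood in 60.7%, 61%, 70.6% and 70.9%. The shares for TGACGTCA were 7.14%, 4.07%, 4.41% and 3.32%, and those for TGANTCA were 7.14%, 6.98%, 4.04% and 4.23%. All motifs were searched on both strands. Matches of TATAAA and the CArG box overlapped in 10 windows those of CCAAT and the CArG box in 15, and those of CCAAT and GGGCGG in 75. These shares describe windows and were not tested.

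EGR1 had 388, 307 and 236 TMM-scaled CPM after dBET6, 7.21, 6.89 and 4.28 CPM after THAL-SNS-032, and 1.56, 8.85 and 5.83 CPM in DMSO. In CPM only the dBET6 libraries stood high, and the THAL-SNS-032 and DMSO ranges overlapped. The log2 fold change over THAL-SNS-032 was 5.63 (SE 0.33, adjusted p = 4.83e-21, edgeR), and 4.82 on the spike-in scale. EGR1 lies at chr5:138465490-138469315 (hg38, GENCODE 29) and is transcribed from 2 exons.

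JUN, the AP-1 subunit encoded by a gene of 1 exon, had 445, 318 and 296 CPM after dBET6, 33.2, 27.6 and 29.9 CPM after THAL-SNS-032, and 7.49, 13.5 and 9.81 CPM in DMSO. In CPM the 3 groups did not overlap, with dBET6 highest and DMSO lowest. JUN was 3.54 higher on the TMM scale (SE 0.20, adjusted p = 2.82e-21, edgeR) and 2.76 higher per spike-in. JUNB had 182, 268 and 89.0 CPM after dBET6, 43.3, 39.1 and 37.1 CPM after THAL-SNS-032, and 71.4, 64.7 and 86.5 CPM in DMSO, so that its level after THAL-SNS-032 was below all 3 DMSO libraries. Its log2 fold change was 2.19 (SE 0.34, adjusted p = 1.31e-05, edgeR). IER2, an early response nuclear protein, had 362, 290.1 and 366 CPM after dBET6, 133, 106 and 171 CPM after THAL-SNS-032 and 195, 182 and 169 CPM in DMSO. The difference was 1.32 (SE 0.17, adjusted p = 1.63e-07, edgeR) on the TMM scale and 0.53 per spike-in.

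NR4A2, an orphan nuclear receptor that is not in that list, had 66.9, 62.2 and 54.2 CPM after dBET6, 13.0, 2.30 and 4.28 CPM after THAL-SNS-032, and 1.25, 1.54 and 2.76 CPM in DMSO, a log2 fold change of 3.28 between the compounds (SE 0.40, adjusted p = 2.33e-08, edgeR). The antiproliferative gene BTG1 was 0.97 higher on the TMM scale (SE 0.18, adjusted p = 0.000233, edgeR) and 0.19 per spike-in, where it was not called. FOS (33 counts after dBET6 and 11 after THAL-SNS-032), BTG2 (30 and 11 counts) and KLF2 (7 and 0 counts) were also TMM-higher, but their calls held in 2, 1 and 1 of the 6 leave-one-out fits. KLF2 was at least 3.46-fold higher, against a floor of 3 counts over the THAL-SNS-032 libraries. JUND, another AP-1 gene, differed by 0.42 (adjusted p = 0.248, edgeR) and was not called.

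The thioredoxin inhibitor TXNIP was also on the higher side. It had 927, 858 and 977 CPM after dBET6, 170.1, 146 and 201 CPM after THAL-SNS-032, and 115, 134 and 116 CPM in DMSO. Its difference between the compounds was 2.42 (SE 0.15, adjusted p = 1e-20, edgeR), and 1.64 per spike-in. Per spike-in the log2 fold change of TXNIP over DMSO was -0.65 after dBET6 and -2.28 after THAL-SNS-032. Histone genes followed. Of 42 genes matched by symbol, 9 were higher and 0 lower on the TMM scale (median 0.49), and of the 36 tested per spike-in 4 were higher and 6 lower (median -0.30). The shares of all genes were 2.06% and 2.57% on the TMM scale and 0.392% and 53.4% per spike-in. H1FX, a linker histone, had 1043, 1426 and 542 CPM after dBET6 and 317, 358 and 242 CPM after THAL-SNS-032, against 242, 224 and 303 CPM in DMSO (1.71, SE 0.20, adjusted p = 9.4e-09, edgeR). Per spike-in H1FX was below DMSO, with log2 fold changes of -1.64 after dBET6 and -2.54 after THAL-SNS-032. Between the compounds, HIST1H2AC was 2.12 higher (SE 0.35, adjusted p = 4.25e-05, edgeR), and the H2B pseudogene HIST2H2BC 3.25 higher (SE 0.24, adjusted p = 2.82e-16, edgeR). HIST2H2BE, an H2B gene reported to rise with BET inhibitors, was 2.17 higher with 33 and 11 counts, a call that held in 3 of the 6 leave-one-out fits. Histone genes have near-identical copies, so reads may be split between them. Polyadenylated RNA was measured, so these values cover only histone transcripts with a poly(A) tail and need not follow total histone mRNA.

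The largest folds came from genes with few or no counts after THAL-SNS-032. IQCN, at chr19:18257097-18274509, had 84 counts over the dBET6 libraries and 0 after THAL-SNS-032 and in DMSO, and was at least 41.5-fold higher than after THAL-SNS-032 on the TMM scale and at least 24.6-fold per spike-in (floor of 3 counts over the group). The processed pseudogene AL031777.1, among the histone genes of chromosome 6, had 98 counts after dBET6 and 1 after THAL-SNS-032, a ratio of 145 (exact 95% counting interval 25.5 to 5791). The lincRNA AL137077.2 had 30 and 3 counts, a ratio of 14.8 (4.61 to 75.8). The other genes selected by size were VGF (39 and 5 counts), AL513497.1 (31 and 5), AL031777.3 (63 and 12), PAPPA (26 and 5) and MAFA (28 and 6). Of these, PAPPA and MAFA kept the call in 5 of the 6 leave-one-out fits. Of the 45 genes higher on both scales, 15 were above DMSO per spike-in after dBET6 and 4 after THAL-SNS-032, and 16 and 32 were below DMSO. The 45 were selected as higher after dBET6 on this scale in the same libraries. The direction of that split between the compounds therefore follows from the selection and is not a separate result. Among all genes tested per spike-in, 0.423% were above and 97.1% below DMSO after dBET6, and 0.256% were above and 96.2% below DMSO after THAL-SNS-032. All 333 genes of the lower side were below DMSO after both compounds. EGR1, JUN and NR4A2 were above DMSO per spike-in after dBET6, with log2 fold changes of 2.29, 1.53 and 1.44 (adjusted p = 2.38e-10, 3.61e-09 and 0.00104, edgeR), while after THAL-SNS-032 their values were -2.54, -1.23 and -1.03 (adjusted p = 4.93e-06, 4.83e-05 and 0.0709). Both comparisons share the DMSO libraries.

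**Figure D3:**
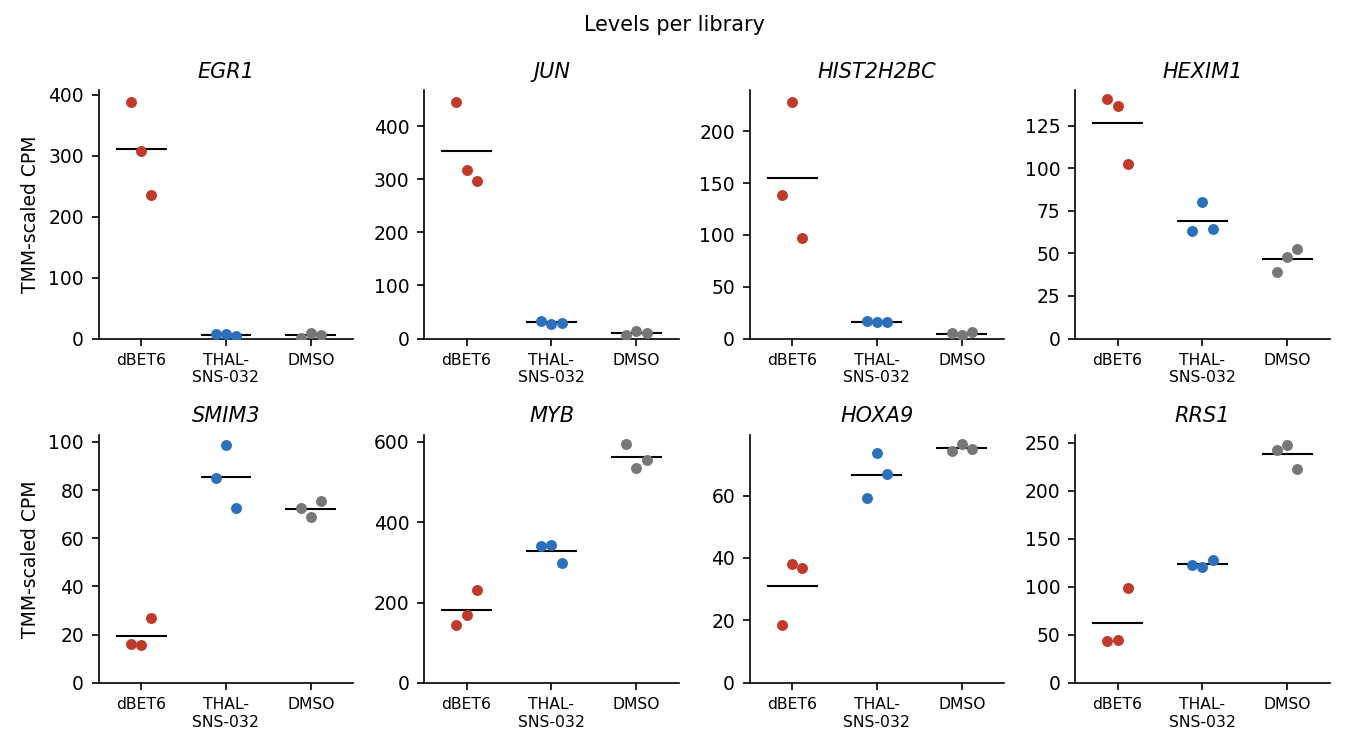
TMM-scaled CPM of 8 genes in each library after dBET6, THAL-SNS-032 or DMSO, with a line at the mean (n = 3). The upper row shows genes higher after dBET6 than after THAL-SNS-032 and the lower row genes that were lower. All 8 were picked from genes called on the TMM scale, some by a rule that requires separate ranges. That the points of the 2 compounds do not overlap is thus no separate result.

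Genes of the lower side, which fell further with dBET6, included regulators of blood cell identity. Of 34 hematopoietic transcription factors tested on the TMM scale, 7 were lower and 0 higher (MYB, RUNX3, HOXA9, HOXA10, TAL1, MEF2C and ETV6), against 2.57% and 2.06% of all genes. The list had a median of -0.40 on the TMM scale and -1.12 per spike-in, against -0.05 and -0.82 for all genes. MYB and RUNX3 kept the call in all 6 leave-one-out fits, MEF2C in 3 and ETV6 in 2, and MYB alone passed in the 6 libraries by themselves. MYB, a transcription factor of immature blood cells, had 143, 169 and 230.2 CPM after dBET6, 342, 344 and 298 CPM after THAL-SNS-032, and 595, 535 and 555 CPM in DMSO. The 3 groups were ordered without overlap, with dBET6 lowest. MYB was lower by -0.85 on the TMM scale (SE 0.12, adjusted p = 5.03e-07, edgeR) and by -1.61 per spike-in.

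RUNX3, a RUNT-domain factor, had 55.4, 93.3 and 105 CPM after dBET6, 185, 170.0 and 136 CPM after THAL-SNS-032, and 185, 196 and 218 CPM in DMSO (-0.93, SE 0.14, adjusted p = 8.92e-06, edgeR). HOXA9, a homeobox factor of leukaemic self-renewal, had 18.5, 38.0 and 36.8 CPM after dBET6, 59.1, 73.5 and 67.0 CPM after THAL-SNS-032 and 74.2, 76.6 and 74.8 CPM in DMSO. The log2 fold change of HOXA9 was -1.07 (SE 0.24, adjusted p = 0.00391, edgeR), called in 5 of the 6 leave-one-out fits. Its neighbour HOXA10 was -0.88 (adjusted p = 0.0109, edgeR, 4 of 6 fits), and since the annotated genes overlap, reads of one may be counted for the other. TAL1, a basic helix-loop-helix factor, was -1.05 (adjusted p = 0.00607, 5 of 6 fits, edgeR). HOXB4, a homeobox gene of blood stem cells not in that list, had 6.92, 5.18 and 9.67 CPM after dBET6 against 21.6, 33.3 and 15.7 CPM after THAL-SNS-032 (-1.74, SE 0.41, adjusted p = 0.00533, edgeR, 5 of 6 fits).

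MYC, a growth-promoting transcription factor and known target of BET inhibitors, did not differ detectably between them at this depth. It had 23.1, 15.5 and 31.0 CPM after dBET6, 41.8, 25.3 and 29.9 CPM after THAL-SNS-032, and 68.6, 108 and 99.9 CPM in DMSO. The 2 compounds overlapped and both lay below DMSO. The difference was -0.48 (SE 0.53, adjusted p = 0.699, edgeR) on the TMM scale and -1.23 (adjusted p = 0.0621) per spike-in. GATA2 differed by 0.12 (adjusted p = 0.848, edgeR) and GATA1 had too few counts to compare. Of 12 genes of the MYC and MAX network, 0 were called in either direction on the TMM scale. With 2.57% of all genes lower and 2.06% higher, this does not set the network apart.

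SMIM3, which encodes a small membrane protein, had the lowest adjusted p of the 12 lower genes called with the 6 libraries alone (0.000972, edgeR). It had 16.2, 15.5 and 27.1 CPM after dBET6, 85.1, 98.8 and 72.7 CPM after THAL-SNS-032, and 72.7, 68.9 and 75.4 CPM in DMSO. In CPM it overlapped with DMSO after THAL-SNS-032, and after dBET6 every library was lower. Per spike-in SMIM3 was below DMSO after both compounds, with log2 fold changes of -5.42 after dBET6 and -2.56 after THAL-SNS-032. Its difference between the compounds was -2.13 (SE 0.24, adjusted p = 3.99e-09, edgeR) on the TMM scale and -2.87 per spike-in. LYSMD3 (5 counts after dBET6 and 48 after THAL-SNS-032), a LysM domain protein, was lower by -2.68 (SE 0.50, adjusted p = 0.000346, edgeR). The other genes selected by size, with values of -2.35 to -1.72, were ZNF551, UBTD1, COQ3, CARD19, RBM18, SFMBT2, TMEM268, PPAN, HOXB4 and ANKRD40. RBM18 alone among these kept the call in all 6 leave-one-out fits, and the others did so in 2 to 5.

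Of 31 ribosome biogenesis genes tested, 4 were lower and 0 higher on the TMM scale (PPAN, RRS1, NOP16 and WDR43), and 4 were lower and 1 higher with median-of-ratios scaling. The list's TMM median was -0.13, against -0.05 for all genes. RRS1 alone of the 4 kept the call in all leave-one-out fits, with NOP16 and WDR43 called in 3 each, and 0 genes of the list were called with DESeq2 or with the 6 libraries alone. RRS1, needed for maturation of the large subunit, had 43.8, 44.9 and 98.7 CPM after dBET6, 123, 121 and 128 CPM after THAL-SNS-032, and 243, 248 and 223 CPM in DMSO (-0.98, SE 0.15, adjusted p = 9.45e-06, edgeR). PPAN, in the same pathway, had 12 and 61 counts and was -1.77 (adjusted p = 0.0106, edgeR, 3 of 6 fits). Of 25 G2 and mitosis genes 6 were lower and 0 higher, among them PRC1, which bundles spindle microtubules (-0.67, SE 0.11, adjusted p = 1.93e-05, edgeR). Of 30 Mediator subunits 2 were lower (MED23 and MED13, called in 2 and 1 of the 6 leave-one-out fits). Of all genes 2.57% were lower and 2.06% higher on the TMM scale. With median-of-ratios scaling, 2 of the G2 and mitosis genes were lower and 1 was higher.

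The mRNA levels of BRD2 and BRD3, members of the BET family, overlapped between the compounds. BRD3 had 205, 178 and 190 CPM after dBET6, 205, 199 and 204 CPM after THAL-SNS-032 and 260, 233 and 272 CPM in DMSO. On the TMM scale BRD3 differed by -0.09 (adjusted p = 0.806, edgeR) and BRD2 by -0.39 (adjusted p = 0.582), and neither was called, while per spike-in both were lower after dBET6, by -0.87 and -1.15 (adjusted p = 5.18e-07 and 0.000577). CDK9 mRNA was counted 3 times after dBET6 and 25 times after THAL-SNS-032, a ratio of 0.178 on the TMM scale (exact 95% counting interval 0.0344 to 0.583), which did not pass the TMM test (adjusted p = 0.13, edgeR) but was lower per spike-in (adjusted p = 0.00593). Its partner CCNT1, cyclin T1, was -0.76 (adjusted p = 0.0456, 2 of 6 fits). HEXIM1, a marker gene of BET inhibition, had 141, 136 and 103 CPM after dBET6, 63.4, 80.4 and 64.2 CPM after THAL-SNS-032, and 39.0, 47.7 and 52.7 CPM in DMSO. It was 0.85 higher on the TMM scale (SE 0.19, adjusted p = 0.00412, edgeR) but 0.09 per spike-in (adjusted p = 0.751). Relative to other transcripts HEXIM1 was thus higher after dBET6, while the amount per spike-in did not differ detectably. Per spike-in HEXIM1 was below DMSO, with log2 fold changes of -2.13 after dBET6 and -2.22 after THAL-SNS-032. Of 17 genes of the degradation machinery and its known cereblon-dependent substrates, 0 were called on the TMM scale. With 2.57% of all genes lower and 2.06% higher, this does not set them apart.

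**Figure D4:**
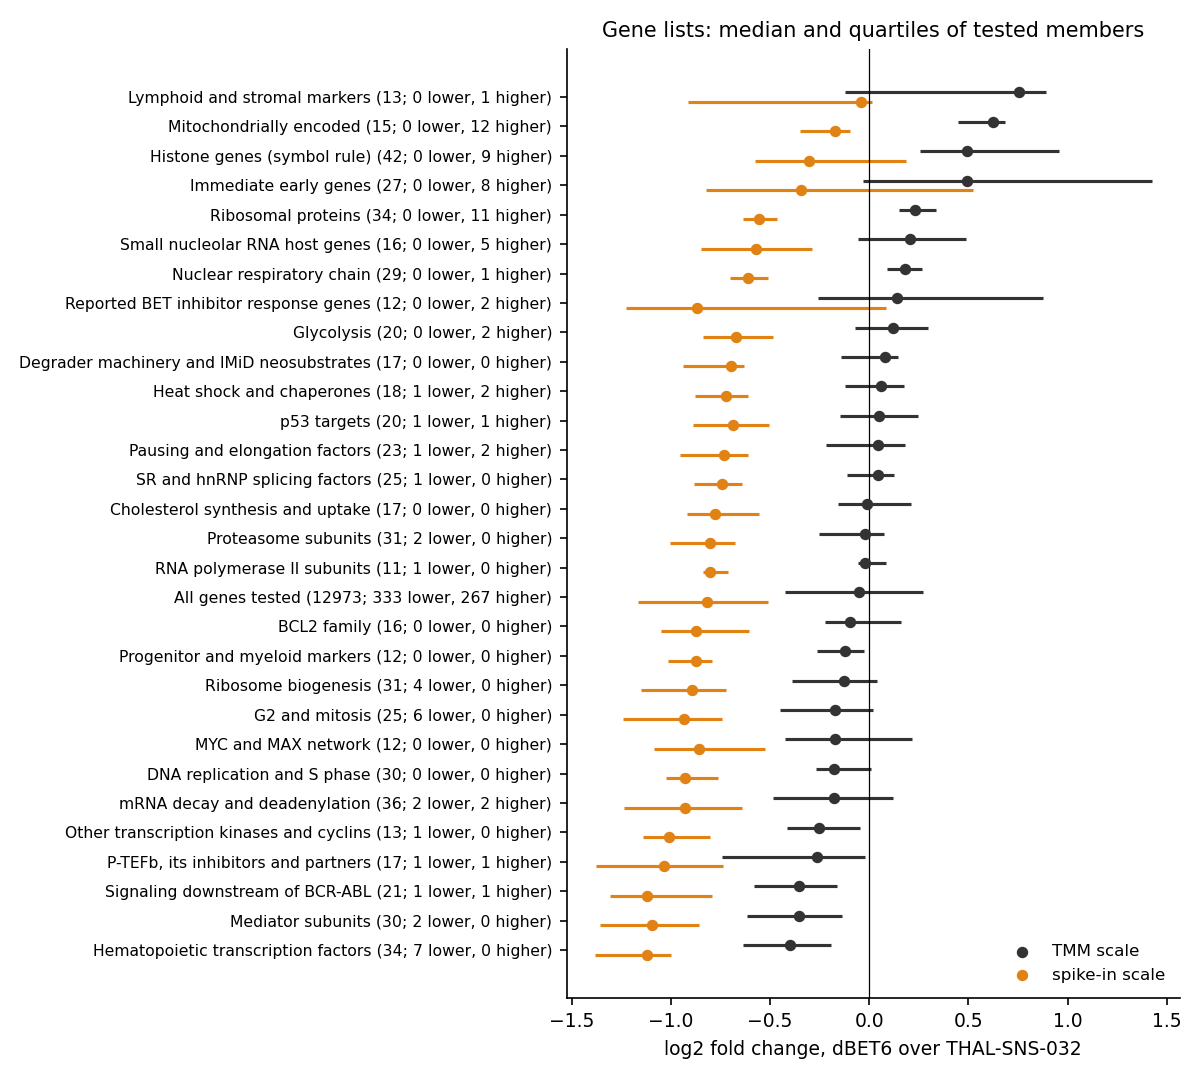
Median (point) and quartiles (line) of the log2 fold change of dBET6 over THAL-SNS-032 for each gene list with at least 10 tested members, on the TMM scale (black) and the spike-in scale (orange); the numbers in brackets are the tested members and those called lower or higher on the TMM scale. Hematopoietic transcription factors have the lowest TMM median (-0.40) and lymphoid and stromal markers the highest (0.75). The medians of histone, immediate early and mitochondrially encoded genes, among others, are also positive on the TMM scale. On the spike-in scale the median of every list drawn is negative.

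Most mitochondrially encoded transcripts were higher after dBET6 on the TMM scale, and none was higher per spike-in. Mitochondrially encoded genes, transcribed by their own polymerase, made up 18.4, 18.8 and 14.2% of counts after dBET6, 11.7, 14.5 and 10.5% after THAL-SNS-032 and 4.69, 4.30 and 3.96% in DMSO. On the TMM scale 12 of 15 were higher and 0 lower after dBET6 (median 0.63), whereas per spike-in 6 were lower and 0 higher (median -0.17). Among all genes 2.06% were higher on the TMM scale and 53.4% lower per spike-in. Per spike-in their summed log2 ratio differed by -0.15 between the compounds (exact permutation test, two-sided, p = 0.3, n = 3 each). MT-CYB was 0.77 higher on the TMM scale (SE 0.12, adjusted p = 2.48e-05, edgeR) and -0.03 per spike-in. Of 34 ribosomal protein genes, 11 were higher, 0 lower and 23 not called on the TMM scale (median 0.23), and 29 were lower and 0 higher per spike-in (median -0.56, against -0.82 for all genes, of which 53.4% were lower). Of the 11 calls 1 held in every leave-one-out fit, and 0 ribosomal protein genes were called with DESeq2 or with the 6 libraries alone. Of 16 small nucleolar RNA host genes, 5 were higher and 0 lower on the TMM scale, 2 of them in every leave-one-out fit. Per spike-in 7 of the 16 were lower, against 53.4% of all genes.

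The sides had different gene structures. The 333 lower genes had a median annotated length of 33600 bp and 9 exons, the 267 higher genes 18780.5 bp and 6 exons, and all genes tested 28838 bp and 8 exons. Genes with a single exon made up 1.2% of the lower side, 18.6% of the higher side and 8.31% of all. Of 1075 single-exon genes, 49 were higher and 4 lower, with a median of 0.25. Of 5 equal bins by length, the shortest (59 to 7402 bp) had 96 higher and 33 lower calls, and the longest (89350 to 2241765 bp) had 69 higher and 48 lower calls. The bins between them had more lower than higher calls, with 38 higher and 80 lower, 25 higher and 81 lower, and 36 higher and 91 lower, in order of length. The sides also differed in level, with a DMSO median of 92.7 CPM for the lower side, 12.3 CPM for the higher side and 22.8 CPM for all genes. Of 5 equal bins by DMSO level, the lowest had a median TMM fold change of 0.37, with 105 higher and 2 lower calls, and the highest had -0.029, with 92 higher and 182 lower calls. The part of level and depth in these differences of structure was not tested.

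Cells in which CDK9 itself was tagged, none of them in the libraries above, were read for both sides. With dTAG7 in the CDK9-dTAG line, 27.1% of all genes tested were lower and 20.6% higher than in DMSO on the TMM scale. Of the 333 genes lower after dBET6, 254 were lower with dTAG7 (76.3%) and 11 higher, with a median of -0.90 (quartiles -1.38 and -0.41). Of the 267 genes higher after dBET6, 195 were higher with dTAG7 (73%) and 18 lower, with a median of 1.04 (quartiles 0.48 and 2.56). The median of all genes was -0.09. Each side thus had a median of the same sign in the CDK9-dTAG line as between dBET6 and THAL-SNS-032. In the MED14-dTAG line the medians were -0.15 for the lower side, 0.33 for the higher side and 0.01 for all genes, with 36.9% of the lower side lower and 30.7% of the higher side higher, against 16.6% and 13.2% of all genes. In the other direction, 17.4% of the lower side was higher and 6.74% of the higher side lower with dTAG7 in that line. The sides also differed in level, with DMSO medians of 92.7 CPM (lower side) and 12.3 CPM (higher side). Per spike-in the median gene changed by -2.93 with dTAG7 in the CDK9-dTAG line and by -0.69 in the MED14-dTAG line. The part of level and of this RNA loss in the medians of the sides was not tested.

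**Figure D5:**
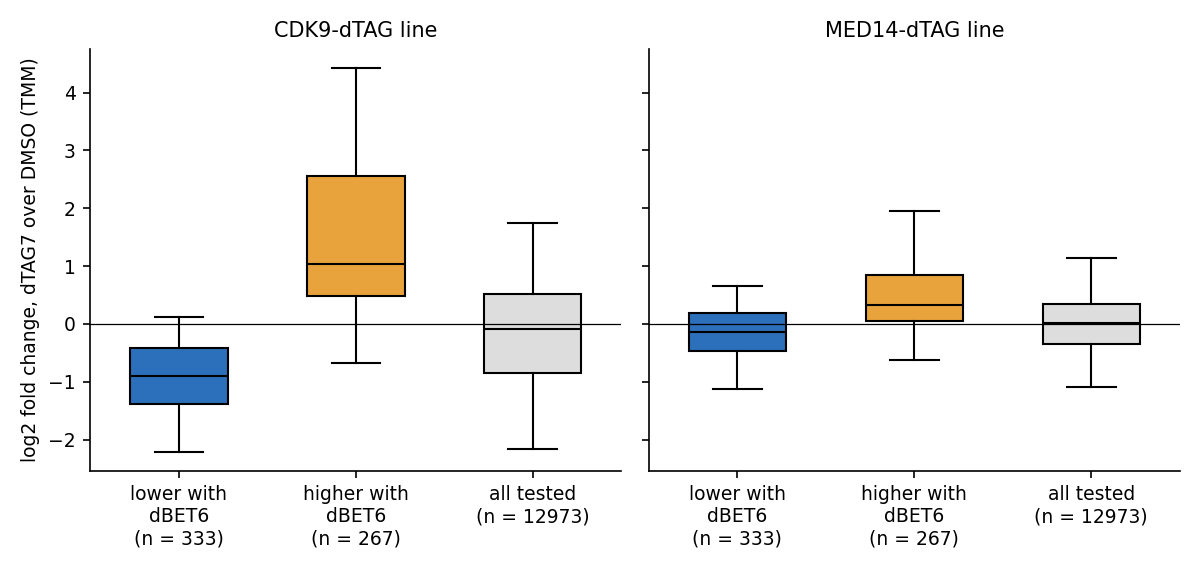
Log2 fold change of dTAG7 over DMSO (TMM scale) in the CDK9-dTAG and MED14-dTAG lines for the 333 genes lower and the 267 genes higher after dBET6 than after THAL-SNS-032, and for all 12973 genes tested (line, median; box, quartiles; whiskers, 5th and 95th percentiles). The median of the lower side is below and that of the higher side above the median of all genes in both lines, with a wider gap in the CDK9-dTAG line, and in the MED14-dTAG line the boxes of the sides overlap.

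Some genes did not move this way. On the lower side SMIM3 and HOXA9 had log2 fold changes of -0.10 (adjusted p = 0.64, edgeR) and 0.00 (adjusted p = 0.987) with dTAG7 in the CDK9-dTAG line, while MYB had -1.69 (adjusted p = 4.2e-20). PRC1 was 0.74 higher there (adjusted p = 5.96e-10, edgeR) and MAFG, a small MAF factor, 1.13 higher (adjusted p = 3.72e-08), although both were lower after dBET6 than after THAL-SNS-032 (MAFG in 5 of the 6 leave-one-out fits). On the higher side JUNB and IER2 were lower with dTAG7, by -1.16 and -0.95 (adjusted p = 0.00419 and 4.76e-06, edgeR), whereas JUN was 1.73 higher (adjusted p = 4.11e-06). NFKBIA, the inhibitor of NF-kappaB, was 0.93 higher after dBET6 than after THAL-SNS-032 (adjusted p = 0.00186, edgeR) and -2.42 with dTAG7 (adjusted p = 6.41e-17). The kinase gene PIM3 and the chaperone gene HSPA5 were likewise higher after dBET6, by 0.57 and 0.49 on the TMM scale, and lower with dTAG7, by -1.44 and -1.01 (adjusted p = 1.12e-11 and 7.61e-13), but per spike-in they were -0.21 and -0.30 between the compounds, and the call of PIM3 held in 2 of the 6 leave-one-out fits. EGR1 was 1.02 higher with dTAG7, short of the threshold (adjusted p = 0.0542, edgeR). MAFG and NFKBIA were chosen after their values were seen, as were MEF2C, ETV6, NOP16, WDR43, FOS, JUND, JUNB, IER2, TXNIP, HIST1H2AC, H1FX, RUNX3 and HOXA10.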

How the data were processed

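Polyadenylated RNA was measured by 3' mRNA sequencing. The authors deposited raw read counts per gene and spike-in (37 ERCC and 7 SIRV sequences) and a second table of loess-normalized signal values, whose program is not given in the sources used here. Per the submitters' processing notes, STAR 2.5.2b, HTSeq 0.6.0 and bedtools 2.26.0 were used with hg38, and their settings and use of strand are not given in the sources used here. Genes present sum to 70 counts or more and were detected in 20 or more libraries. GENCODE 29 named 13297 of 13331 genes. Library totals ran from 439261 to 4337368 endogenous and 10950 to 72684 spike-in counts.

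Counts were tested with edgeR 4.0.16 (R 4.3.3), a quasi-likelihood F test fitted to the 22 groups of the series together (66 libraries, 44 residual degrees of freedom) on genes passing filterByExpr, with spike-in totals or TMM-scaled totals as library size. SE was taken as the size of the log2 fold change over the root of F. CPM are TMM-scaled unless said to be per spike-in. The members and lists were chosen with earlier results of these data known. Genes named by size were the 12 lowest and 12 highest TMM fold changes with a symbol, called on both scales, averaging 10 CPM or more, and with separate ranges in the compared groups. BRD2, BRD3, CDK9, CCNT1, HEXIM1, MYC, MYB, GATA1 and GATA2 and up to 2 members of each list in each direction were always looked at, and 1 further gene is not reported here. Counting intervals (95%) and floors of 3 counts cover counting error only. Alternatives were other filters, scales and library subsets, a replicate block, DESeq2 1.42.0, limma 3.58.1 on log2 of the loess-normalized signal plus 1, and each library left out. Replicates differed by more than sampling noise (chi-square per degree of freedom 1.91 to 6.43). The scripts were tested on simulated data. Figures were drawn with matplotlib.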

Additional observations from a re-analysis of the deposited data

How the results depend on the processing

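On the TMM scale the counts of genes lower and higher after dBET6 (333 and 267) were 12 and 32 with the 6 libraries alone, 66 and 77 with the 9 wild-type libraries, 9 and 38 with DESeq2, and 121 to 384 and 101 to 271 with 1 library left out. They were 215 (lower) with median-of-ratios size factors, 177 (higher) with at least 10 counts in each library, 8197 and 52 with limma on the loess-normalized table, and 1209 and 740 once that table was centred on the median gene, a choice made after seeing the data. The lower count on both scales equalled the TMM count in each of these fits that was run on both scales, with 215 under median-of-ratios. That equality follows largely from the lower median gene on the spike-in scale and is no separate result. On the spike-in scale the counts (6684 and 49) were 4354 and 10 with at least 10 counts in each library, 3676 and 17 with DESeq2, and 5161 to 7088 and 32 to 65 with 1 library left out, and TMM gave 333 and 267 and median-of-ratios 215 and 383. The spike-in higher count was also 22 with 6 libraries, 24 with 9 and 75 with mitochondrially encoded genes as the scale. The 45 genes higher on both scales became 10, 22, 23 and 17 with at least 10 counts, with 6 libraries, with 9 libraries and with DESeq2, 71 with the mitochondrial scale, and 28 to 63 with 1 library left out (28 without replicate B of THAL-SNS-032). Without replicate A of dBET6 the TMM counts were 121 and 101, without replicate B of THAL-SNS-032 214 were lower, and without replicate C of THAL-SNS-032 176 were higher.

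Deviations from the group mean correlated between the compounds by 0.0159, 0.232 and 0.207 for the same letter (A, B and C). Those of B after dBET6 with C after THAL-SNS-032, and of C with B, were -0.209 and -0.216. Deviations cancel out within a compound, so the values for B and C reflect a shared difference between those letters, not separate agreements. Libraries A did not share variation by letter. The main fit had no term for the letter, and the cause was not tested. With the letter as a replicate block on the 6 libraries, 156 genes were lower and 221 higher on the TMM scale, and 156 were lower on both scales.

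Relative to all genes, the CDK9-dTAG medians (-0.81 and 1.13) became -1.13 and 2.19 for genes past 1 log2 unit and 1.05 (higher) on the spike-in scale. The MED14-dTAG medians (-0.16 and 0.32) became -0.0764 and 0.66 past 1 log2 unit and 0.24 (higher) on the spike-in scale, and the higher side ran from 0.25 to 0.35 with 1 library left out. The RNA ratio ran from -0.74 to -0.56 with 1 library left out. Genes higher on the TMM scale that were negative with spike-in totals were RPL13 -0.31, RPL10A -0.33, MT-CYB -0.029, MT-ND5 -0.022, COX8A -0.53, HSPA5 -0.30, HSP90B1 -0.34, MDM2 -0.19, ZFAS1 -0.034, PGK1 -0.39, ENO1 -0.54, PIM3 -0.21. With limma on the uncentred loess-normalized table, negative values were RPL13 -0.29, RPL10A -0.37, MT-CYB -0.018, MT-ND5 -0.020, COX8A -0.52, HSPA5 -0.30, HSP90B1 -0.33, MDM2 -0.22, SNHG3 -0.035, ZFAS1 -0.059, PGK1 -0.38, ENO1 -0.53, PIM3 -0.23. The TMM calls of RPL13, RPL10A, COX8A, SNHG3, ZFAS1 and ENO1 held in 2, 4, 3, 4, 2 and 2 of the leave-one-out fits. Spike-in totals keep the common difference that TMM removes by construction, and the cause of the loess values was not tested. Depth limits genes with few counts, such as CDK9 and GATA1, most.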

Other observations

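IQCN, which had counts after dBET6 but 0 after THAL-SNS-032 and in DMSO, lies 5251 bp downstream of JUND on the same strand (chr19:18257097-18274509, minus strand). JUND had 118, 219 and 94.8 TMM-scaled CPM after dBET6, 99.5, 138 and 87.0 CPM after THAL-SNS-032 and 134, 112 and 114 CPM in DMSO, so its groups overlapped. AL031777.1 lies 1441 bp downstream of the histone gene HIST1H2BF, and AL513497.1 lies 5160 bp downstream of RCC1. Of the 45 genes higher after dBET6 on both scales, 12 (26.7%) have a gene of the count table that overlaps their start or ends within 10000 bp upstream on the same strand, against 18.6% of the lower genes and 20.7% of all genes tested. These genes were looked at after their values were seen.

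MS4A1, which encodes the B cell antigen CD20, had 39 counts after dBET6, 11 after THAL-SNS-032 and 0 in DMSO, and was 4.11 higher with dTAG7 in the CDK9-dTAG line (adjusted p = 9.49e-05, edgeR). Its difference between the compounds was 2.37 on the TMM scale (adjusted p = 0.00996, edgeR, called in 4 of 6 leave-one-out fits), and it was not tested per spike-in. MDM2, a p53 target and inhibitor, had 565, 610 and 542 CPM after dBET6, 379, 462 and 309 CPM after THAL-SNS-032, and 50.2, 62.3 and 65.3 CPM in DMSO. MDM2 was 0.57 higher after dBET6 (SE 0.11, adjusted p = 0.000494, edgeR) on the TMM scale and -0.19 (adjusted p = 0.199) per spike-in. Against DMSO its log2 fold change per spike-in was -0.30 after dBET6 (adjusted p = 0.0247, edgeR) and -0.11 after THAL-SNS-032 (adjusted p = 0.395).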
